A study of Homo sapiens with 16 samples.

Results

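The response of parental LNCaP prostate cancer cells to enzalutamide was described from 8 RNA sequencing libraries of a series of 16. LNCaP is an androgen-responsive line derived from a lymph node metastasis of prostate adenocarcinoma. The treated group (EZ) held 4 libraries of wild-type (WT) cells that received enzalutamide at 50 µM for 6 days. The control group (DMSO) held 4 libraries of WT cells that received an equal volume of the solvent for 6 days. Both groups grew in medium with fetal bovine serum, so that serum was present in the controls and in the treated cells. The libraries were chosen by their labels (cell line, genotype and treatment), and the replicate number, 1 to 4, paired each EZ library with the DMSO library of the same number. The other 8 libraries came from LNCaP cells with a CRISPR-Cas9 double knockout (DKO) of RB and a further gene, under the same treatments, and are used here for a comparison of the response. Per the labels, total RNA was depleted of ribosomal RNA, so that RNA without a poly(A) tail was sequenced as well. All libraries come from 1 cell line, and the labels do not say whether replicates were separate cultures, so the p-values describe the spread among these libraries, part of which may be technical.

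Enzalutamide is an antiandrogen, a drug that blocks the transcriptional response to androgens, which includes activation of genes such as those of the kallikrein proteases. In luminal prostate cells androgen signalling also drives lipid and sterol synthesis, secretory function and proliferation. A set of other genes is held down by androgen signalling and is released when it is blocked. Genes of both kinds were therefore described beside the whole expressed transcriptome.

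Total counts ran from 16805414 to 47678648 per library, and 30166 to 35275 genes had at least 1 count. All 10 luminal prostate markers listed, among them HOXB13 and KRT8, were at or above 1 CPM (read counts scaled to library size) in all 8 libraries. Their summed level was 5424 to 7924 CPM in EZ and 5626 to 6843 CPM in DMSO. All 6 leukocyte markers were under 1 CPM throughout, with CD3E at 0, and of 5 basal markers 4 were under 1 CPM. Of 5 endothelial markers 4 were under 1 CPM, and the exception, VWF, made up most of a summed level of 2.76 to 6.69 CPM in EZ and 5.47 to 18.0 CPM in DMSO. Of the 6 fibroblast markers 3 were under 1 CPM, with DCN at 0, while COL1A1 had 13.3 to 16.9 CPM in EZ and 14.2 to 18.1 CPM in DMSO and PDGFRB 0.921 to 1.597 CPM in EZ and 0.737 to 2.86 CPM in DMSO. Of the 6 neuroendocrine markers 4 were under 1 CPM, with INSM1 at 0, and SYP and NCAM1 exceeded 1 CPM in some libraries, within a summed level of 1.24 to 3.32 CPM in EZ and 2.39 to 3.39 CPM in DMSO.

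A pair of libraries stood apart from the rest of their groups. The mean log2 CPM of 33 mitosis genes was 2.72, 4.98, 4.87 and 5.07 in EZ libraries 1 to 4, against 5.88, 5.34, 5.13 and 3.34 in DMSO libraries 1 to 4. EZ replicate 1 and DMSO replicate 4 were thus low on this list, and the mean of 39 S phase genes was low in the same libraries, at 3.20, 4.62, 4.56 and 4.67 in EZ and 5.27, 4.63, 4.53 and 3.08 in DMSO. The mean of 18 targets of the antioxidant factor NRF2 was high in both, at 6.35, 5.36, 5.42 and 5.50 in EZ and 5.13, 5.19, 5.21 and 6.55 in DMSO. EZ replicate 1 also carried 0.5503% of its counts on the small cytoplasmic RNA RN7SL1 and 1.295% on EEF1A1, and the other EZ libraries at most 0.117% and 0.418%. DMSO replicate 1 had 0.235% RN7SL1 and 1.15% EEF1A1, and the other DMSO libraries at most 0.108% and 0.466%. Values without replicate 1, or by pair, are given beside results that replicate 1 moved strongly.

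**Figure D1:**
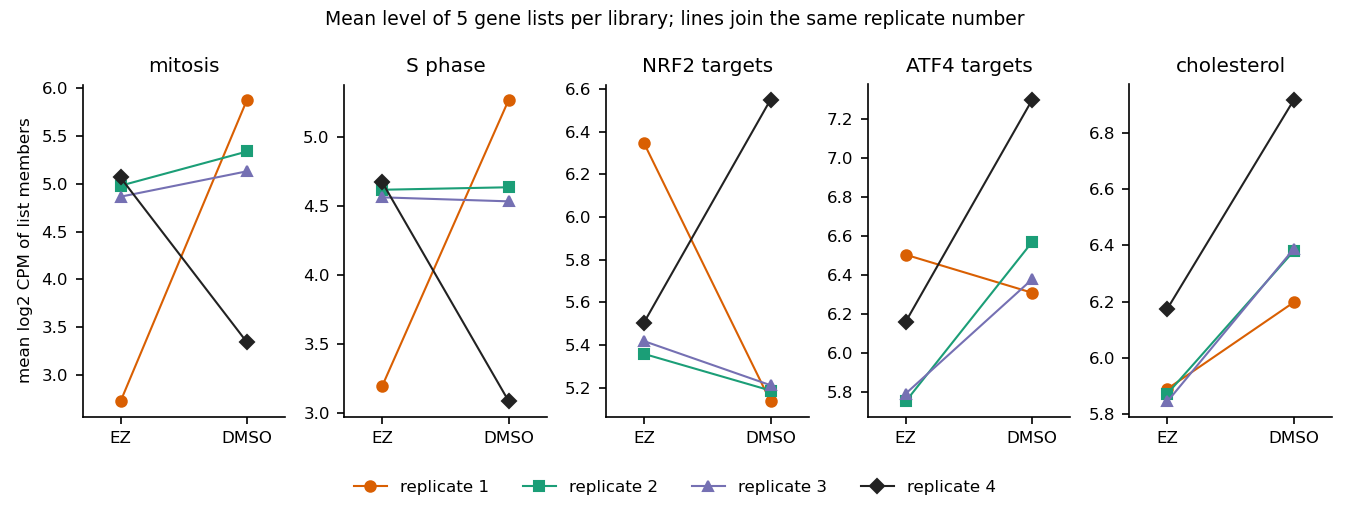
Mean log2 CPM of the tested members of 5 gene lists (vertical axes, scaled separately) in each of the 8 WT libraries, EZ left and DMSO right, with lines joining libraries of the same replicate number. For mitosis and S phase the lines of replicates 1 and 4 cross in opposite directions, while for the cholesterol list all 4 EZ points lie below their paired DMSO points.

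Enzalutamide changed 1104 of 19215 tested genes, 5.75% of those tested, at an adjusted p under 0.05 in edgeR's paired quasi-likelihood test, which is the source of every adjusted p below unless another fit is named. Of these, 684 were higher in EZ (3.56% of tested genes) and 420 were lower (2.19%), and 337 moved by more than 2-fold, 175 up and 162 down. The median absolute log2 fold change of the called genes was 0.77, beside a median of −0.03 for the signed change of all tested genes. All but 1 of the called genes, 1103, had the same sign in all 4 pairs, against 33.8% of all tested genes. The 4 EZ libraries did not overlap the 4 DMSO libraries for 785 of the called genes, and this held for 10.1% of all tested genes (5.57% higher and 4.48% lower). The calls came from a test of these same 4 pairs, so both counts describe the called genes and are not further support. The number of calls depended strongly on which replicates were kept, and it was lowest without replicate 2 or 3. It was 791 without replicate 1 (3.93% of the genes tested), 39 without replicate 2 (0.207%), 10 without replicate 3 (0.053%) and 1809 without replicate 4 (9.39%). Replicates 2 and 3 were much the closest within each group, at a chi-square per degree of freedom of 5.4 in EZ and 8.5 in DMSO. The other comparisons within a group had 28.7 to 104.2. The part of this closeness in the number of calls was not tested. DESeq2 with the same pairing called 10.3%. Without the pairing edgeR called 294 genes. Under upper-quartile scaling 511 genes were higher and 560 lower, and under library totals 489 were higher and 470 lower, so that the share of higher calls depended on the scaling.

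**Figure D2:**
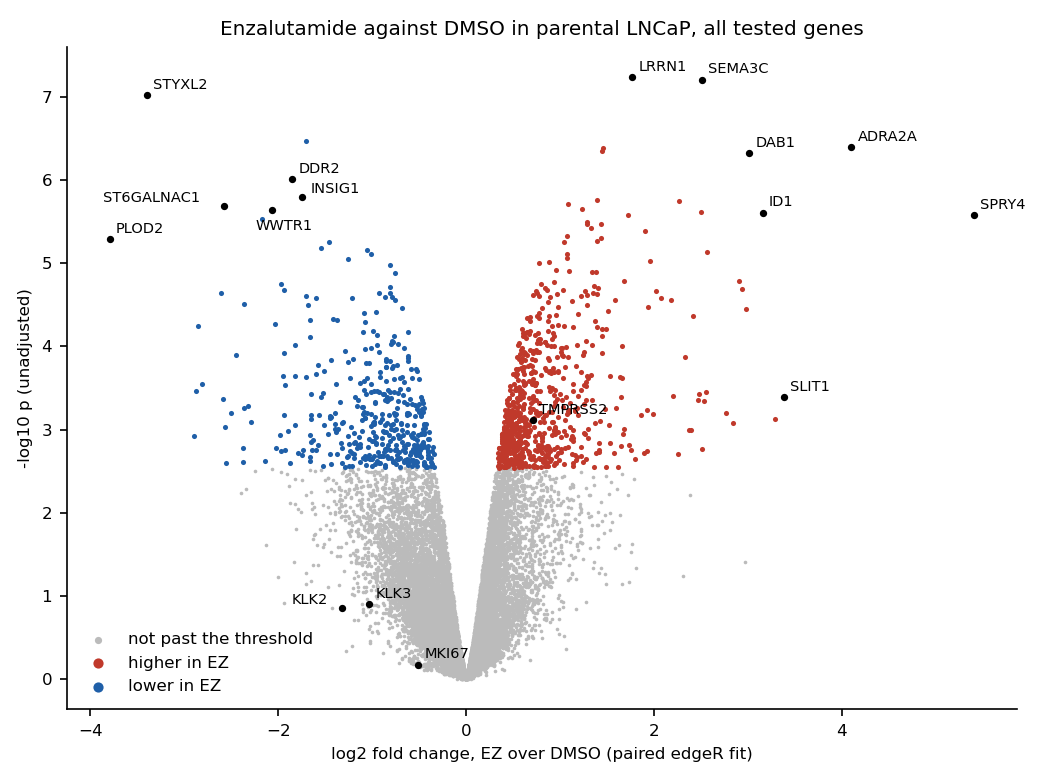
Log2 fold change of EZ over DMSO (horizontal axis) against −log10 of the unadjusted p of the paired edgeR test (vertical axis) for the 19215 tested genes, with genes past the adjusted threshold in red (684 higher) and blue (420 lower) and labelled genes in black. SPRY4, ADRA2A and SLIT1 lie farthest to the right and PLOD2 and STYXL2 farthest to the left among the labelled genes, while KLK3, KLK2 and MKI67 lie in the grey area under the threshold.

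Signed changes of the pairs were compared across all tested genes as a description, since genes are not independent replicates. Pearson's r between the changes of replicates 2 and 3 was 0.57, between 1 and 2 it was 0.45 and between 1 and 3 it was 0.43. Replicate 4 had r of 0.29 with replicate 2 and 0.30 with replicate 3. Replicates 1 and 4 had r of −0.06.

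The transcript of the glucocorticoid receptor (NR3C1), a steroid receptor that shares target genes with androgen signalling, was low, at 0.716, 0.549, 0.842 and 1.73 CPM in EZ libraries 1 to 4, against 0.293, 0.966, 0.917 and 1.88 CPM in DMSO libraries 1 to 4. Its change was log2 −0.07 ± 0.33 (SE), adjusted p = 0.918, and the groups overlapped. Of 23 nuclear receptors and coregulators tested, 6 rose and none fell, beside 3.56% of all tested genes higher and 2.19% lower. They were the mineralocorticoid receptor gene NR3C2 (log2 0.71 ± 0.10 (SE), adjusted p = 0.0122), the retinoid receptors RXRA and RARG, the fatty acid sensor PPARD, and the coactivators NCOA3 and NCOA2, with log2 fold changes of 0.50 to 0.71 over the 6.

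Classical androgen-induced genes did not move as a block. Of 38 tested members 3 rose and 5 fell, beside 3.56% and 2.19% of all tested genes, and their median log2 fold change was −0.25 against −0.03 over all genes. By pair the median was −0.87, −0.29, −0.14 and 0.19 for replicates 1 to 4, and without replicate 1 it was −0.13, with 3 higher and 6 lower. That fit called 3.93% of all tested genes. Without replicate 4, 12 of the 38 were called, beside 9.39% of all tested genes. Leaving out replicates 1 and 4 was a check added after the data were seen, resting on 2 pairs. It called 25 of the 38, beside 5286 of all 20766 tested genes. At an unadjusted p under 0.05 in edgeR the former had 4 higher and 15 lower, the latter 9 higher and 21 lower. The share of all tested genes at this p was not counted. KLK3, the gene of prostate-specific antigen, had 13.9, 19.9, 19.3 and 19.4 CPM in EZ libraries 1 to 4, against 78.1, 39.2, 41.1 and 14.3 CPM in DMSO libraries 1 to 4. It was lower in EZ in pairs 1, 2 and 3 and higher in pair 4, where the DMSO library was the lowest of its group, and the change was log2 −1.03 ± 0.54 (SE), adjusted p = 0.341, and log2 −0.57 ± 0.32, adjusted p = 0.373 without replicate 1. KLK2, the neighbouring kallikrein gene, stood at 17.2, 38.5, 38.9 and 41.0 CPM in EZ libraries 1 to 4, against 163, 93.5, 92.5 and 30.8 CPM in DMSO libraries 1 to 4. The same pair ran the other way, and the change was log2 −1.32 ± 0.71 (SE), adjusted p = 0.358, and log2 −0.73 ± 0.39, adjusted p = 0.356 without replicate 1. FKBP5, a cochaperone gene induced by steroid receptors, had pair differences of −1.17, −0.14, −0.19 and 0.48 and a change of log2 −0.25 ± 0.27 (SE), adjusted p = 0.624. The levels of this list moved with the mitosis list in EZ replicate 1 and DMSO replicate 4, and the part of those libraries in the result was not tested beyond leaving their pairs out.

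For KLK3 the RefSeq promoter window (GRCh38.p14, chr19:50854665-50854964, plus strand, around the gene's start) is shown because the gene is the standard readout of androgen signalling. Capitals mark the letters AGAACA, a hexamer of the androgen response element, at position −170 from the start.
KLK3: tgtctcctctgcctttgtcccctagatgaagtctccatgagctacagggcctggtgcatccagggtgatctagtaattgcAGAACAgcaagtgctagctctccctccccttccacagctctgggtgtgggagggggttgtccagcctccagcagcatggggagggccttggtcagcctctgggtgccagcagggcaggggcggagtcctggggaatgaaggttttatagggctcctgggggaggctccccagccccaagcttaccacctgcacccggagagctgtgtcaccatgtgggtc
The 6 letters were searched on both strands and are found in 9.60% of the promoters of tested genes and in 14.9% of all promoters. They occur in 4 of the 29 androgen-induced members with a promoter entry and in 4 of the 16 androgen-repressed members with one. A match is a description of the sequence and not a site of binding.

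The androgen-induced members that rose were TMPRSS2, KLK4 and SORD. TMPRSS2, a membrane serine protease gene, stood at 559, 469.5, 613 and 557 CPM in EZ libraries 1 to 4, against 465, 264, 376 and 267 CPM in DMSO libraries 1 to 4. All 4 pairs were higher in EZ, DMSO replicate 1 fell just short of the lowest EZ library, and the change was log2 0.71 ± 0.13 (SE), adjusted p = 0.0282. KLK4, another kallikrein gene, averaged 58.6 ± 2.89 CPM in EZ and 32.1 ± 9.88 CPM in DMSO (SD, n = 4), with no overlap, and rose by 0.92 ± 0.17 (adjusted p = 0.0286). SORD, a sorbitol dehydrogenase gene, rose by 0.43 ± 0.09 (adjusted p = 0.0413). Under scaling by library totals none of these 3 was called and 7 members were lower, beside 2.45% of all tested genes. The 5 that fell were SLC38A4, TRPM8, ELOVL7, UAP1 and ACSL3. UAP1, which makes the UDP-N-acetylglucosamine used in glycosylation, stood at 145, 121, 113 and 134 CPM in EZ libraries 1 to 4, against 308, 254, 251 and 224 CPM in DMSO libraries 1 to 4. Every EZ library was below every DMSO library, and the change was log2 −1.01 ± 0.10 (SE), adjusted p = 0.00408. TRPM8, a cold-sensing cation channel gene, averaged 1.08 ± 0.285 CPM in EZ and 4.29 ± 1.18 CPM in DMSO (SD, n = 4) and fell by 1.97 ± 0.21 on the log2 scale (adjusted p = 0.00612). ELOVL7 and ACSL3, which elongate and activate fatty acids, changed by −1.09 ± 0.13 and −0.85 ± 0.13, and the amino acid transporter gene SLC38A4 by −2.57 ± 0.48 at under 3 CPM.

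Of 24 androgen-repressed genes tested, 6 rose and 4 fell, beside 3.56% and 2.19% of all tested genes, with a median log2 fold change of 0.15. MME, the membrane endopeptidase neprilysin, stood at 411, 837, 707 and 423 CPM in EZ libraries 1 to 4, against 196, 266, 219 and 215 CPM in DMSO libraries 1 to 4. Every EZ library was above every DMSO library, and the change was log2 1.35 ± 0.15 (SE), adjusted p = 0.00612. CAMK2N1, an inhibitor of calmodulin kinase II, stood at 47.1, 124, 112 and 82.1 CPM in EZ libraries 1 to 4, against 11.5, 21.1, 17.3 and 23.6 CPM in DMSO libraries 1 to 4. The groups did not overlap, and the change was log2 2.27 ± 0.16 (SE), adjusted p = 0.00255. SESN1, a stress-induced regulator of mTORC1, stood at 219, 226, 193 and 186 CPM in EZ libraries 1 to 4, against 112, 86.3, 66.8 and 77.0 CPM in DMSO libraries 1 to 4. It too was higher in each EZ library, with a change of log2 1.29 ± 0.11 (SE), adjusted p = 0.00272. GPER1, a membrane oestrogen receptor gene, rose by 1.08 ± 0.15 and the hepatocyte growth factor receptor gene MET by 1.05 ± 0.20. Without replicate 1 the MET change had an adjusted p of 0.0556.

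The UGT2B genes, which encode enzymes that glucuronidate and so inactivate androgens, moved in different directions. UGT2B17 stood at 357, 370.5, 321 and 507 CPM in EZ libraries 1 to 4, against 171, 188, 168 and 349 CPM in DMSO libraries 1 to 4. Each pair was higher in EZ, although DMSO replicate 4 reached the EZ range, and the change was log2 0.88 ± 0.11 (SE), adjusted p = 0.00853. UGT2B11 stood at 25.6, 38.4, 32.1 and 90.1 CPM in EZ libraries 1 to 4, against 130.2, 98.0, 90.2 and 198 CPM in DMSO libraries 1 to 4. Each pair was lower in EZ, the highest EZ library lay just under the lowest DMSO library, and the change was log2 −1.57 ± 0.20 (SE), adjusted p = 0.0144. UGT2B28 stood at 2.30, 3.59, 4.10 and 8.61 CPM in EZ libraries 1 to 4, against 20.6, 14.2, 12.2 and 19.96 CPM in DMSO libraries 1 to 4. The groups did not overlap, and the change was log2 −1.94 ± 0.31 (SE), adjusted p = 0.0263. UGT2B10 changed by −0.66 ± 0.15 (adjusted p = 0.0458) and UGT2B15 by −0.01 ± 0.08 (adjusted p = 0.969). These genes are near-identical copies, and how reads shared between them were counted is not given in the sources used here, so their separate values are uncertain.

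**Figure D3:**
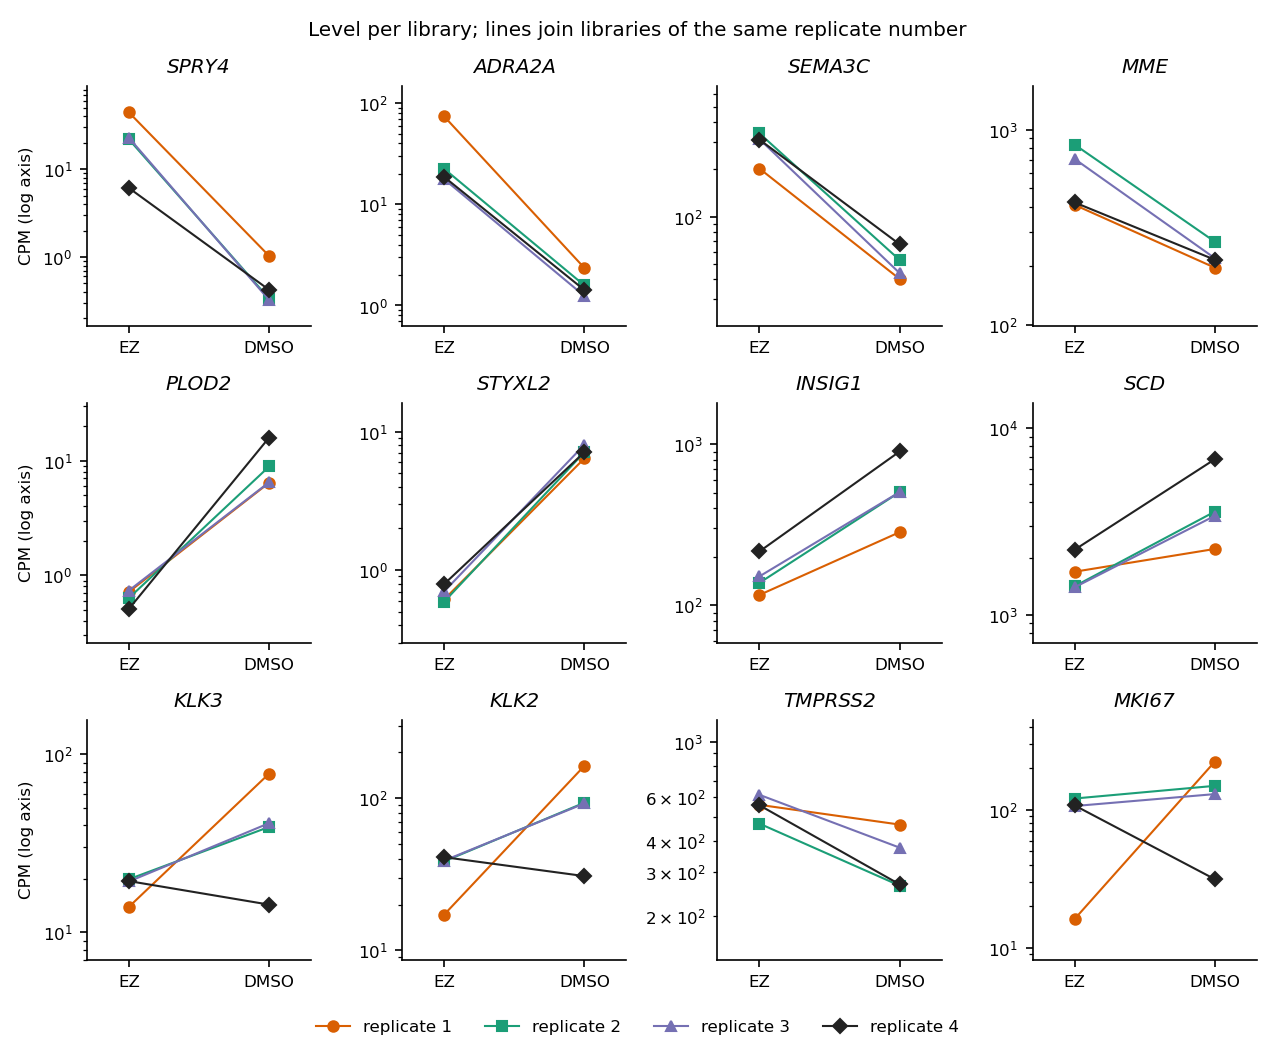
CPM of 12 genes in each WT library (vertical log axes, scaled separately), EZ left and DMSO right, with lines joining libraries of the same replicate number. SPRY4, ADRA2A, SEMA3C and MME are higher in all EZ libraries and PLOD2, STYXL2, INSIG1 and SCD lower, while the lines of KLK3, KLK2 and MKI67 cross.

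Many genes of sterol synthesis and uptake fell. Of 26 tested members of the list 13 fell and 1 rose, beside 2.19% and 3.56% of all tested genes, and the median log2 fold change was −0.56 against −0.03. The median was −0.36, −0.60, −0.51 and −0.73 in pairs 1 to 4, below 0 in each. These genes are switched on by the transcription factor SREBP2 when sterols in the endoplasmic reticulum are low, and INSIG1 retains that factor when sterols are high. INSIG1 (chromosome 7, 155297776 to 155310235, GRCh38) stood at 115.7, 138, 151 and 216 CPM in EZ libraries 1 to 4, against 284, 504, 504 and 901 CPM in DMSO libraries 1 to 4. Every EZ library was below every DMSO library, and the change was log2 −1.74 ± 0.13 (SE), adjusted p = 0.00255. FDFT1 (chromosome 8, 11795573 to 11839309), squalene synthase, stood at 277, 253, 225 and 349.8 CPM in EZ libraries 1 to 4, against 420.3, 483, 481 and 881 CPM in DMSO libraries 1 to 4. DMSO replicate 4 was the highest library, no EZ library reached the DMSO range, and the change was log2 −0.99 ± 0.13 (SE), adjusted p = 0.00980.

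Enzymes of the pathway that also fell were HMGCS1, MVK, MVD, FDPS, SQLE, LSS, HSD17B7 and DHCR7, with log2 fold changes of −1.05 for HSD17B7 to −0.46 for DHCR7. SREBF2, the gene of SREBP2, averaged 222 ± 28.98 CPM in EZ and 326 ± 74.5 CPM in DMSO (SD, n = 4) and changed by −0.54 ± 0.12 (adjusted p = 0.0410). The member that rose was TM7SF2, a sterol reductase gene, which stood at 318, 209.5, 196 and 291 CPM in EZ libraries 1 to 4, against 130.4, 131, 128 and 193 CPM in DMSO libraries 1 to 4. Every EZ library was above every DMSO library, with a change of log2 0.79 ± 0.13 (SE), adjusted p = 0.0200. Without replicate 1 the list again had 13 members lower and 1 higher, with a median of −0.73, beside 3.93% of all tested genes called. Without replicate 2 it had 1 lower and without replicate 3 none in the edgeR test, beside 0.207% and 0.053% of all tested genes called. In these fits 15 and 16 members were lower at an unadjusted p under 0.05, a share not counted over all tested genes.

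The promoter of SREBF2 is shown because it was the sole match to the sterol response letters TCACNCCAC, on either strand, among the 10 called members with a RefSeq promoter entry. The window is chr22:41832855-41833154 (GRCh38.p14, plus strand), and capitals mark the match at position −133 from the start.
SREBF2: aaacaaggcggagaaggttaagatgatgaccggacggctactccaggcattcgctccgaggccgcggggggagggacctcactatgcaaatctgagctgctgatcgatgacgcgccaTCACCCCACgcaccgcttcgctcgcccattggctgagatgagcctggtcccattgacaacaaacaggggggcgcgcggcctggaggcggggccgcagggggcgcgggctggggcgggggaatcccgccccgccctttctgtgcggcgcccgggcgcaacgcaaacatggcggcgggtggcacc
The letters are found in 1.08% of promoters of tested genes and 1.15% of all promoters. That the other 9 called members, INSIG1 and HMGCS1 among them, lack these exact letters in this window says nothing about binding there.

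Fatty acid genes moved in part with the sterol genes. Of 17 tested members 5 fell and 1 rose, beside 2.19% and 3.56% of all tested genes, with a median log2 fold change of −0.18. SCD, the stearoyl-CoA desaturase that makes monounsaturated fatty acids, stood at 1697, 1419, 1401 and 2226 CPM in EZ libraries 1 to 4, against 2247, 3565, 3383 and 6804 CPM in DMSO libraries 1 to 4. EZ replicate 4 came close to DMSO replicate 1 without reaching it, and the change was log2 −1.16 ± 0.20 (SE), adjusted p = 0.0244. LPIN1, a phosphatidate phosphatase gene, stood at 110.4, 129, 125 and 146 CPM in EZ libraries 1 to 4, against 163, 252, 287 and 446 CPM in DMSO libraries 1 to 4. The groups did not overlap, with a change of log2 −1.08 ± 0.16 (SE), adjusted p = 0.0174. The desaturases FADS2 and FADS1 changed by −0.86 ± 0.12 and −0.74 ± 0.13, and ACLY, which supplies cytosolic acetyl-CoA, by −0.58 ± 0.13. The elongase gene ELOVL1 rose by 0.45 ± 0.08 (adjusted p = 0.0237). FASN, fatty acid synthase, stood at 1613, 1670.0, 1607 and 2673 CPM in EZ libraries 1 to 4, against 2207, 2979.7, 2970.3 and 2673 CPM in DMSO libraries 1 to 4. EZ replicate 4 was within the DMSO range, and the change of −0.54 ± 0.16 did not pass the threshold (adjusted p = 0.0906). On the efflux side, 3 of 10 LXR-linked genes rose, among them the sterol exporter ABCG1 (log2 1.14 ± 0.18 (SE), adjusted p = 0.0182) and the lysosomal sterol carrier NPC2 (log2 0.86 ± 0.15 (SE), adjusted p = 0.0264).

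Genes of the ATF4 programme, which responds to amino acid shortage and other stress by raising amino acid synthesis and transport, were lower in 3 of the 4 pairs. Of 24 tested members 6 fell and none rose, beside 2.19% and 3.56% of all tested genes, with a median log2 fold change of −0.57 and pair medians of 0.16, −0.78, −0.53 and −1.12. MTHFD2, a mitochondrial folate enzyme, stood at 143, 100.4, 103 and 128 CPM in EZ libraries 1 to 4, against 191, 254, 229 and 339 CPM in DMSO libraries 1 to 4. Every EZ library was below every DMSO library, with a change of log2 −1.08 ± 0.17 (SE), adjusted p = 0.0200, and without replicate 4 the adjusted p was 0.0575. SLC7A5, a transporter of large neutral amino acids, stood at 9.82, 7.26, 7.33 and 10.9 CPM in EZ libraries 1 to 4, against 12.1, 19.1, 17.1 and 21.8 CPM in DMSO libraries 1 to 4. EZ and DMSO values were fully apart, with a change of log2 −0.98 ± 0.19 (SE), adjusted p = 0.0291. The serine pathway enzymes PHGDH and PSPH changed by −0.48 ± 0.09 and −0.53 ± 0.11, the mitochondrial enzymes ALDH1L2 and PCK2 by −0.95 ± 0.12 and −0.93 ± 0.15. SLC7A11, the cystine importer, and TRIB3, a pseudokinase, had pair differences of 0.31, −1.37, −1.14 and −2.38 and of 0.68, −1.44, −1.19 and −2.10, higher in EZ in pair 1 and lower in the other 3, and did not pass the threshold (adjusted p = 0.263 and 0.351). Without replicate 1, 14 of the 24 fell and none rose, with a median of −0.87, beside 3.93% of all tested genes called. Without replicates 2 or 3 none was called by edgeR, beside 0.207% and 0.053% of all tested genes. In either case 10 members were lower at an unadjusted p under 0.05, a share not counted over all tested genes. The ATF4 response letters TGATGNAA were found in 5 of the 19 members with a promoter entry, beside 1.82% of the promoters of tested genes, and in none of the 4 called members with an entry.

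Among protein-coding genes averaging 5 CPM or more in 1 of the groups, SPRY4 and ADRA2A had the highest log2 fold changes. SPRY4 (chromosome 5, 142310427 to 142326455), which dampens growth factor receptor signals, stood at 44.5, 21.9, 22.8 and 6.12 CPM in EZ libraries 1 to 4, against 1.03, 0.335, 0.324 and 0.422 CPM in DMSO libraries 1 to 4. No DMSO library came near the lowest EZ library, replicate 4, and the change was log2 5.41 ± 0.36 (SE), adjusted p = 0.00255. In its list of 18 tested MAPK feedback genes it was the 1 member that rose, and DUSP4, a phosphatase of MAP kinases, the 1 that fell, beside 3.56% and 2.19% of all tested genes. DUSP4 stood at 23.1, 15.2, 14.3 and 20.9 CPM in EZ libraries 1 to 4, against 61.6, 40.5, 39.0 and 30.3 CPM in DMSO libraries 1 to 4. There was no overlap between EZ and DMSO, with a change of log2 −1.20 ± 0.17 (SE), adjusted p = 0.0132. ADRA2A (chromosome 10, 111077163 to 111080907), the alpha-2A adrenergic receptor, stood at 74.1, 22.5, 17.7 and 18.7 CPM in EZ libraries 1 to 4, against 2.35, 1.58, 1.24 and 1.42 CPM in DMSO libraries 1 to 4. EZ replicate 1 was the highest library, the other 3 EZ libraries were close together above all DMSO libraries, and the change was log2 4.10 ± 0.24 (SE), adjusted p = 0.00114.

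ID1 and ID3 encode inhibitors of basic helix-loop-helix transcription factors and are classic targets of bone morphogenetic protein (BMP) signals. ID1 (chromosome 20, 31605283 to 31606515) stood at 60.1, 18.6, 25.4 and 7.42 CPM in EZ libraries 1 to 4, against 7.19, 1.72, 1.83 and 1.497 CPM in DMSO libraries 1 to 4. The lowest EZ library, replicate 4, lay just above the highest DMSO library, replicate 1, and the change was log2 3.16 ± 0.24 (SE), adjusted p = 0.00255. ID3 (chromosome 1, 23557918 to 23559794) stood at 73.8, 22.5, 26.1 and 14.3 CPM in EZ libraries 1 to 4, against 3.62, 1.99, 2.43 and 3.88 CPM in DMSO libraries 1 to 4. No EZ library fell in the DMSO range, and the change was log2 3.29 ± 0.44 (SE), adjusted p = 0.0281. Of 16 tested members of the ID and BMP list 4 rose and none fell, beside 3.56% and 2.19% of all tested genes, the other risers being the inhibitory SMAD genes SMAD6 (1.34 ± 0.18) and SMAD7 (0.85 ± 0.11), and the list's median log2 fold change was 0.64.

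Of 19 axon guidance genes tested 4 rose and none fell, beside 3.56% and 2.19% of all tested genes. Without replicate 1 the counts were 6 and 0, beside 3.93% of all tested genes called. SLIT1 (chromosome 10, 96998038 to 97185920), a secreted guidance ligand, stood at 88.9, 27.1, 26.7 and 52.7 CPM in EZ libraries 1 to 4, against 3.08, 3.61, 3.61 and 6.45 CPM in DMSO libraries 1 to 4. EZ replicate 1 was the highest library, the groups did not overlap, and the change was log2 3.38 ± 0.40 (SE), adjusted p = 0.0218. Without replicate 4 its adjusted p was 0.0714. SEMA3C (chromosome 7, 80742538 to 80922359), a secreted semaphorin, stood at 202, 338, 311 and 309 CPM in EZ libraries 1 to 4, against 40.3, 53.1, 43.9 and 66.8 CPM in DMSO libraries 1 to 4. All EZ libraries were far above all DMSO libraries, and the change was log2 2.51 ± 0.12 (SE), adjusted p = 5.97e-04, with the lowest adjusted p of all tested genes together with LRRN1. SEMA6A and SEMA3F rose by 1.29 ± 0.11 and 0.91 ± 0.11. EFNA5, a ligand of Eph receptors, stood at 353, 377, 366 and 222 CPM in EZ libraries 1 to 4, against 139, 127, 122 and 105 CPM in DMSO libraries 1 to 4. All EZ libraries lay on 1 side of DMSO, with a change of log2 1.39 ± 0.11 (SE), adjusted p = 0.00255. DAB1, an adaptor of reelin receptors, stood at 5.58, 6.59, 7.19 and 10.6 CPM in EZ libraries 1 to 4, against 0.489, 0.710, 1.13 and 1.497 CPM in DMSO libraries 1 to 4. Each EZ library was above every DMSO library, with a change of log2 3.01 ± 0.20 (SE), adjusted p = 0.00114. LRRN1, a neuronal leucine-rich repeat protein gene, stood at 70.1, 113, 103 and 78.9 CPM in EZ libraries 1 to 4, against 19.8, 32.1, 28.7 and 26.3 CPM in DMSO libraries 1 to 4. The groups were far apart, with a change of log2 1.77 ± 0.09 (SE), adjusted p = 5.97e-04.

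Other increases of more than 4-fold covered a range of functions. MID1, a ubiquitin ligase gene of microtubules on chromosome X, stood at 16.9, 54.5, 52.2 and 42.4 CPM in EZ libraries 1 to 4, against 6.41, 5.82, 5.12 and 4.30 CPM in DMSO libraries 1 to 4. EZ replicate 1 was the lowest EZ library, still above DMSO, and the change was log2 2.85 ± 0.40 (SE), adjusted p = 0.0291. AIDA (chromosome 1, 222668013 to 222713210), an axin interactor, stood at 624, 669, 622 and 616 CPM in EZ libraries 1 to 4, against 178, 102, 86.4 and 100.3 CPM in DMSO libraries 1 to 4. DMSO replicate 1 was the highest of the DMSO libraries, far below EZ, and the change was log2 2.498 ± 0.18 (SE), adjusted p = 0.00255. Of 7 tested interleukin-1 family genes 2 rose, beside 3.56% of all tested genes, both of which encode receptor antagonists. IL36RN stood at 10.1, 7.56, 5.61 and 6.23 CPM in EZ libraries 1 to 4, against 1.03, 0.611, 0.647 and 1.73 CPM in DMSO libraries 1 to 4. Values of both groups were separate, with a change of log2 2.93 ± 0.31 (SE), adjusted p = 0.00612, and IL1RN rose by 2.41 ± 0.28 (adjusted p = 0.00802).

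In the Hippo pathway, which restrains the coactivators YAP and TAZ, 2 of 19 tested genes rose and 2 fell, beside 3.56% and 2.19% of all tested genes. AMOTL1, a motin that binds YAP at junctions, stood at 28.7, 47.9, 37.1 and 22.4 CPM in EZ libraries 1 to 4, against 4.65, 6.02, 5.02 and 6.68 CPM in DMSO libraries 1 to 4. EZ and DMSO values were fully apart, with a change of log2 2.56 ± 0.22 (SE), adjusted p = 0.00399. WWTR1, the gene of TAZ, stood at 1.38, 1.52, 1.23 and 1.33 CPM in EZ libraries 1 to 4, against 4.89, 6.63, 5.66 and 5.68 CPM in DMSO libraries 1 to 4. All EZ libraries were below all DMSO libraries, with a change of log2 −2.06 ± 0.17 (SE), adjusted p = 0.00255. AMOT rose by 0.47 ± 0.09 and AJUBA, a LIM protein that inhibits the pathway's kinases, changed by −0.92 ± 0.10 (adjusted p = 0.00612). In the Notch list 2 of 16 rose and 1 fell, beside the same shares of all genes. Those that rose were the receptor gene NOTCH3 (0.68 ± 0.09) and the effector HES1 (0.95 ± 0.16), and HES6, an antagonist of HES1, changed by −1.34 ± 0.21 (adjusted p = 0.0227). LEF1, a nuclear effector of Wnt signals, was the 1 of 17 Wnt genes called, beside 5.75% of all tested genes, at log2 1.34 ± 0.23 (SE), adjusted p = 0.0223. Without replicate 1, 2 Wnt genes were called, beside 3.93% of all tested genes.

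Several further genes with at least 100 CPM rose. ITPRID2 stood at 1538, 779.8, 722 and 656 CPM in EZ libraries 1 to 4, against 384, 265, 244 and 349 CPM in DMSO libraries 1 to 4. EZ replicate 1 was far above the other EZ libraries, which were themselves above DMSO, and the change was log2 1.51 ± 0.17 (SE), adjusted p = 0.00743. CFAP69, a cilium-associated protein gene, rose by 1.66 ± 0.20, and ST7 by 1.44 ± 0.12. CSMD1, a large membrane protein gene with complement-control domains, rose by 1.40 ± 0.13 and MANEA, an endomannosidase gene, by 1.39 ± 0.15. ZC3H12A, a ribonuclease that degrades inflammatory transcripts, stood at 135, 90.6, 78.3 and 73.2 CPM in EZ libraries 1 to 4, against 48.8, 28.1, 30.7 and 29.2 CPM in DMSO libraries 1 to 4. There was no overlap between EZ and DMSO, with a change of log2 1.46 ± 0.09 (SE), adjusted p = 0.00114. SELENOW, a small selenoprotein gene, stood at 71.7, 49.6, 48.2 and 51.1 CPM in EZ libraries 1 to 4, against 25.2, 18.0, 19.96 and 17.2 CPM in DMSO libraries 1 to 4. It was likewise higher in each EZ library, with a change of log2 1.45 ± 0.09 (SE), adjusted p = 0.00114.

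**Figure D4:**
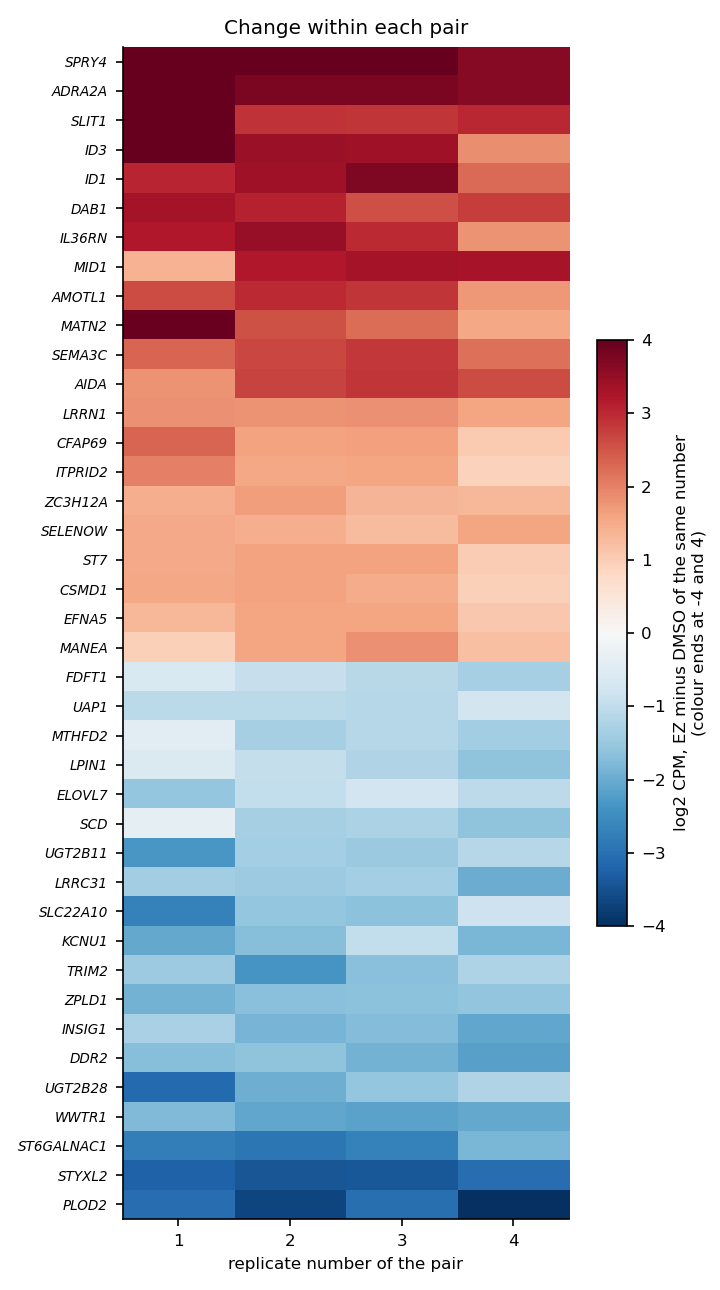
Heatmap of the per-pair log2 CPM difference, EZ minus DMSO (colour scale), of the protein-coding genes named for the largest or most certain changes (rows) in replicates 1 to 4 (columns). Each row keeps its colour across the 4 columns, as the choice of these genes required, and the row of PLOD2 runs from −3.02 in replicate 3 to −4.78 in replicate 4.

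Among protein-coding genes averaging 5 CPM or more in 1 of the groups, PLOD2 and STYXL2 had the lowest log2 fold changes. PLOD2 (chromosome 3, 146069440 to 146163653), which hydroxylates lysines of collagen, stood at 0.716, 0.634, 0.736 and 0.510 CPM in EZ libraries 1 to 4, against 6.41, 8.88, 6.47 and 15.9 CPM in DMSO libraries 1 to 4. All EZ libraries were under 1 CPM, all DMSO libraries were above 6 CPM, and the change was log2 −3.79 ± 0.32 (SE), adjusted p = 0.00333. DDR2 (chromosome 1, 162631373 to 162787400), a receptor tyrosine kinase for collagen, stood at 5.42, 6.38, 7.58 and 6.26 CPM in EZ libraries 1 to 4, against 18.0, 19.4, 28.1 and 28.1 CPM in DMSO libraries 1 to 4. No EZ library fell in the DMSO range, and the change was log2 −1.85 ± 0.13 (SE), adjusted p = 0.00207. STYXL2 (chromosome 1, 167094045 to 167129165), which encodes a catalytically inactive phosphatase relative, stood at 0.614, 0.591, 0.701 and 0.793 CPM in EZ libraries 1 to 4, against 6.41, 7.10, 8.04 and 7.10 CPM in DMSO libraries 1 to 4. The EZ libraries lay close together under 1 CPM, with a change of log2 −3.39 ± 0.18 (SE), adjusted p = 6.16e-04. ST6GALNAC1, a sialyltransferase gene of mucin-type glycans, stood at 2.51, 1.86, 2.35 and 1.90 CPM in EZ libraries 1 to 4, against 17.5, 14.2, 15.5 and 6.95 CPM in DMSO libraries 1 to 4. DMSO replicate 4 was the lowest of its group, still above EZ, and the change was log2 −2.58 ± 0.20 (SE), adjusted p = 0.00255.

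Of 29 tested matrix genes 8 rose and 3 fell, beside 3.56% and 2.19% of all tested genes, with a median log2 fold change of 0.32. FN1, fibronectin, stood at 549.6, 341, 291 and 315 CPM in EZ libraries 1 to 4, against 181, 168, 167 and 222 CPM in DMSO libraries 1 to 4. All EZ libraries lay on 1 side of DMSO, with a change of log2 0.98 ± 0.17 (SE), adjusted p = 0.0272. MATN2, a matrilin, rose by 2.53 ± 0.38, COL5A2 by 1.29 ± 0.14, COL18A1 by 0.87 ± 0.12, the laminin chain LAMB1 by 0.65 ± 0.13 and the integrin subunit ITGA3 by 0.94 ± 0.18. PLOD3, a relative of PLOD2, rose by 0.56 ± 0.08, and LOX, which cross-links collagen, changed by −0.98 ± 0.20 (adjusted p = 0.0364). COL3A1 rose by 1.66 ± 0.26 at under 2 CPM. The fibroblast markers beside it were DCN at 0 in all libraries and a summed level of 15.5 to 19.5 CPM in EZ and 17.7 to 21.7 CPM in DMSO, of which COL1A1 made up most.

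Further genes among the decreases were ZPLD1, a zona pellucida domain protein gene (log2 −1.70 ± 0.11 (SE), adjusted p = 0.00114), TRIM2, a ubiquitin ligase gene (−1.68 ± 0.19), and KCNU1, a potassium channel gene (−1.66 ± 0.22). SLC22A10, an organic anion transporter family gene, changed by −1.66 ± 0.29 and LRRC31 by −1.60 ± 0.18. Of 18 tested mucin-type glycosylation genes 2 fell, ST6GALNAC1 and GALNT7 (−0.75 ± 0.09), and 1 rose, GCNT1 (0.37 ± 0.08), beside 2.19% and 3.56% of all tested genes. The GCNT1 call was lost without replicate 1 (adjusted p = 0.0761).

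Genes of MHC class I antigen presentation had median pair differences above 0, lowest in pair 4. Of 14 tested members 6 rose and none fell, beside 3.56% and 2.19% of all tested genes, with a median log2 fold change of 0.96 and pair medians of 1.31, 1.20, 0.82 and 0.30. B2M, the shared light chain of class I molecules, stood at 513, 569, 477 and 990.2 CPM in EZ libraries 1 to 4, against 186, 184, 190.5 and 818 CPM in DMSO libraries 1 to 4. DMSO replicate 4 was far above the other DMSO libraries and within the EZ range, and the change was log2 1.18 ± 0.23 (SE), adjusted p = 0.0435. HLA-E, a non-classical class I gene, stood at 55.7, 66.0, 52.99 and 110.0 CPM in EZ libraries 1 to 4, against 19.2, 21.7, 25.9 and 85.5 CPM in DMSO libraries 1 to 4. DMSO replicate 4 again overlapped EZ, with a change of log2 1.13 ± 0.22 (SE), adjusted p = 0.0422. HLA-C, the peptide transporter TAP1 and the loading factor TAPBP rose by 0.91 ± 0.17, 0.88 ± 0.16 and 0.67 ± 0.11. Without replicate 1, 2 of the 14 rose, and the adjusted p was 0.120 for B2M, 0.0944 for HLA-E and 0.0671 for TAP1. Without replicate 4, 10 rose, and without replicates 2 or 3 none was called by edgeR. Of all tested genes 3.93% were called without replicate 1, 9.39% without replicate 4, 0.207% without replicate 2 and 0.053% without replicate 3. Without replicate 2 or 3, 10 members were higher at an unadjusted p under 0.05 in edgeR in either case, a share not counted over all tested genes. HLA genes are similar in sequence, so reads may have been shared between them. Leukocyte markers were all under 1 CPM in all libraries.

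Of 40 tested interferon-stimulated genes 4 rose and none fell, beside 3.56% and 2.19% of all tested genes, with a median log2 fold change of 0.30 and pair medians of −0.46, 0.98, 0.58 and −0.21. The mean log2 CPM of the list was 2.57, 5.59, 5.40 and 6.16 in EZ libraries 1 to 4, against 3.19, 4.62, 4.91 and 6.35 in DMSO libraries 1 to 4. Replicate 1 was lowest in both groups and replicate 4 highest in both, with differences between replicate numbers larger than those between treatments. IFITM3, an antiviral membrane protein gene, stood at 59.2, 213, 209 and 441 CPM in EZ libraries 1 to 4, against 47.3, 106, 131 and 304 CPM in DMSO libraries 1 to 4. Each pair was higher in EZ while the groups overlapped, and the change was log2 0.64 ± 0.12 (SE), adjusted p = 0.0278. STAT2, IFITM2 and TAP1 were the other members that rose. Without replicate 1, 2 members rose and without replicate 4, 8, beside 3.93% and 9.39% of all tested genes called. Without replicates 2 or 3 none was called by edgeR, beside 0.207% and 0.053% of all tested genes. In either case 6 members were higher at an unadjusted p under 0.05, a share not counted over all tested genes.

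No gene of the cell division lists passed the threshold. MKI67, the proliferation marker Ki-67, stood at 16.2, 121, 107 and 108 CPM in EZ libraries 1 to 4, against 225, 149.7, 130.4 and 31.4 CPM in DMSO libraries 1 to 4. EZ replicate 1 and DMSO replicate 4 were low, pairs 2 and 3 were slightly lower in EZ, and the change was log2 −0.51 ± 1.11 (SE), adjusted p = 0.827. Of 33 mitosis genes tested none was called in the paired edgeR test, and the list's pair medians were −3.25, −0.39, −0.28 and 1.71. None of 39 S phase genes was called, with pair medians of −1.95, −0.03, 0.01 and 1.48, and none of 26 replication-dependent histone genes, with −2.55, −0.43, −0.16 and 1.68. Across the lists of more than 10 genes these had the widest spread between pairs, and pairs 1 and 4 had opposite signs in all 3. At an unadjusted p under 0.05 the edgeR test had 0 mitosis, 0 S phase and 1 histone gene, and DESeq2 with the same pairing had 0, 1 and 1 and called none of them after adjustment. In that edgeR test 4636 of all 19215 tested genes had an unadjusted p under 0.05. Without replicates 1 and 4, a check added after the data were seen and resting on 2 pairs, 22 mitosis genes were lower and none higher, with a median of −0.28, and 14 histone genes were lower and none higher. Of the S phase genes 2 were lower and 4 higher. This fit called 5286 of all 20766 tested genes, 2900 higher and 2386 lower, so that 11.5% of all tested genes were lower. EZH2, a Polycomb methyltransferase gene linked to proliferation, changed by −0.47 ± 0.16 (adjusted p = 0.135), and CDKN1A, which encodes the cyclin-dependent kinase inhibitor p21, stood at 433, 98.4, 89.0 and 104 CPM in EZ libraries 1 to 4, against 88.9, 70.0, 59.9 and 133 CPM in DMSO libraries 1 to 4. EZ replicate 1 was far above all other libraries, and the change was log2 0.73 ± 0.50 (SE), adjusted p = 0.465, and log2 0.22 ± 0.20, adjusted p = 0.557 without replicate 1.

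The RB1 transcript did not pass the threshold. It stood at 88.3, 111, 103 and 107 CPM in EZ libraries 1 to 4, against 105, 111, 93.6 and 118 CPM in DMSO libraries 1 to 4, overlapping, with a change of log2 −0.06 ± 0.09 (SE), adjusted p = 0.724. BTG2, an antiproliferative factor gene, rose (log2 1.23 ± 0.13 (SE), adjusted p = 0.00612). MYC changed by 0.17 ± 0.16 (adjusted p = 0.562), FOLH1, which encodes prostate-specific membrane antigen, by −0.14 ± 0.09 (adjusted p = 0.361), and the mesenchymal filament gene VIM by 0.61 ± 0.20 (adjusted p = 0.128).

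**Figure D5:**
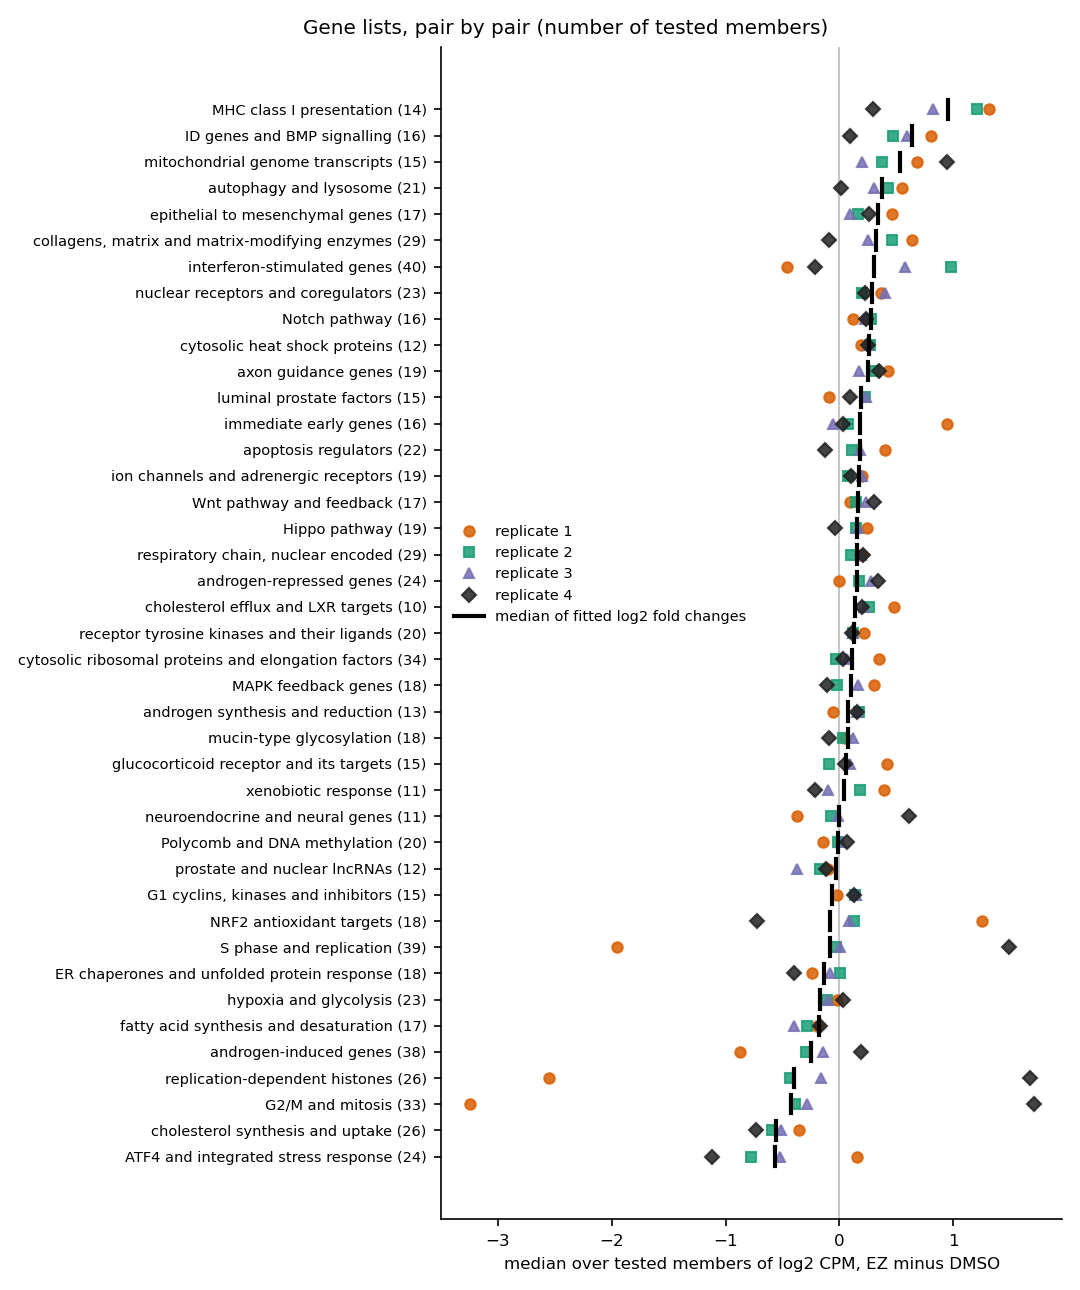
Median per-pair log2 CPM difference, EZ minus DMSO (horizontal axis), over the tested members, at least 10, of each gene list shown (rows, number of members in parentheses), with 1 symbol per replicate and a bar for the median of the fitted log2 fold changes. The 4 symbols of the cholesterol list lie left of 0 and those of the MHC class I list right of 0, while for mitosis, S phase and histone genes replicates 1 and 4 lie on opposite sides.

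Transcripts of the mitochondrial genome had medians above 0 in each pair. Of 15 tested 3 rose, MT-CO1, MT-ATP6 and MT-CO2, beside 3.56% of all tested genes, with a list median of 0.53 and pair medians of 0.68, 0.37, 0.20 and 0.94. MT-CO1, a core subunit of cytochrome c oxidase, stood at 12287, 8429.7, 8087 and 7741 CPM in EZ libraries 1 to 4, against 5585, 5565, 5028 and 3866 CPM in DMSO libraries 1 to 4. Values of both groups were separate, with a change of log2 0.86 ± 0.13 (SE), adjusted p = 0.0153. MT-ATP6 and MT-CO2 rose by 0.72 ± 0.12 and 0.63 ± 0.12. Of 29 nuclear-encoded respiratory chain genes 1 rose, NDUFA4 (0.36 ± 0.08), and without replicate 1 none. The same 3.56% stands beside 21 lysosome and autophagy genes, of which 3 rose, and 1 did without replicate 1, where 3.93% of all tested genes were called. The 3 were the protease gene CTSB (log2 0.78 ± 0.09 (SE), adjusted p = 0.00612), the membrane protein gene LAMP2 (log2 0.56 ± 0.13 (SE), adjusted p = 0.0448) and the proton pump subunit ATP6V0D1. Without replicate 1, LAMP2 had an adjusted p of 0.107.

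The remaining lists are given by their counts, beside 3.56% of all tested genes higher and 2.19% lower. Of 15 tested luminal prostate factors 4 rose, among them the secreted phosphatase ACP3 (log2 0.97 ± 0.14 (SE), adjusted p = 0.0128), the secreted phospholipase PLA2G2A (2.02 ± 0.22) and the pioneer factor GATA2. Of 23 hypoxia and glycolysis genes 3 rose, with the prolyl hydroxylase EGLN3 at 1.01 ± 0.14 and the carbonic anhydrase CA12 at 0.94 ± 0.10. The median log2 fold change of that list was −0.17, with 5 members higher and 7 lower at an unadjusted p under 0.05 in edgeR. Of 22 apoptosis regulators 3 rose, BOK, BAD and BCL2L1, the first 2 of which promote cell death and the other of which opposes it. Of 19 ion channel and adrenergic receptor genes 3 rose, among them ADRA2A and the calcium channel TRPV6 (1.19 ± 0.14). The tight junction gene OCLN rose by 1.08 ± 0.18, and HSPB1, a small heat shock protein, by 0.72 ± 0.13, with an adjusted p of 0.0624 without replicate 4. In 15 glucocorticoid receptor targets the metallothionein gene MT1X was the 1 that rose, and in 13 androgen synthesis genes SULT2B1, a sterol sulfotransferase. FOSL2 was the 1 of 16 immediate early genes called, and CYP1A1 the 1 of 11 xenobiotic response genes. None was called among 18 NRF2 targets, 18 endoplasmic reticulum chaperones, 15 cyclins, kinases and inhibitors of G1, 34 ribosomal proteins and elongation factors, 20 Polycomb and DNA methylation genes, 11 neuroendocrine and neural genes or 4 keratins tested by edgeR, of which 1, 3, 3, 5, 4, 3 and 2 had an unadjusted p under 0.05. Over all 19215 tested genes, 4636 had an unadjusted p under 0.05 in the same edgeR test. DESeq2 called 2 of the neuroendocrine and neural genes and none of the other 6 lists. For NRF2 targets the pair medians were 1.25, 0.13, 0.08 and −0.72, with opposite signs in pairs 1 and 4.

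Long noncoding RNAs were mostly lower where they changed. Of 3290 tested lncRNA genes 110 were lower and 20 higher, against 271 lower and 647 higher of 13461 protein-coding genes, and the median log2 fold changes were −0.26 and 0.03. Under scaling by upper quartiles the counts were 131 lower and 16 higher for lncRNA and 371 lower and 482 higher for protein-coding genes, and under library totals 109 and 17 against 323 and 459. Without replicate 1, 80 lncRNA genes were lower and 11 higher. LINC01133 stood at 4.30, 3.76, 3.82 and 4.95 CPM in EZ libraries 1 to 4, against 10.9, 10.1, 10.1 and 15.7 CPM in DMSO libraries 1 to 4. EZ and DMSO values were fully apart, with a change of log2 −1.46 ± 0.13 (SE), adjusted p = 0.00333. PCAT1, a prostate lncRNA, changed by −0.91 ± 0.14 (adjusted p = 0.0166). The unnamed genes ENSG00000259345 and ENSG00000263427 changed by −1.51 ± 0.23 and −1.66 ± 0.20. Among those that rose, HCP5, in the MHC region, stood at 12.1, 30.3, 24.4 and 40.1 CPM in EZ libraries 1 to 4, against 2.01, 5.64, 6.58 and 21.3 CPM in DMSO libraries 1 to 4. Each pair was higher in EZ, with an overlap at DMSO replicate 4, and the change was log2 1.92 ± 0.29 (SE), adjusted p = 0.0257. Without replicate 1 its adjusted p was 0.0557. ENSG00000232855 and ENSG00000272750 rose by 2.33 ± 0.27 and 1.58 ± 0.18, and ENSG00000232855 had an adjusted p of 0.0518 without replicate 1. The strand setting of the counts is not given in the sources used here, so reads of genes that overlap on opposite strands cannot be told apart.

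With replicate 1 left out, 791 genes were called among 20146 tested, 447 higher and 344 lower, from 3 pairs. Of these 615 were also called with all 4 pairs, which is 77.8% of the 791 and 55.7% of the 1104. All 1103 of the genes called with 4 pairs that were tested again kept their direction. Nearly all genes called with 4 pairs had the same sign in each pair, so this was largely fixed in advance. The log2 fold changes of both fits had r of 0.93 across genes, as a description of 2 fits that share 6 libraries. The genes named for the largest changes moved little. Those that moved most were SLIT1, MID1 and MATN2, at log2 2.93 ± 0.12, adjusted p = 9.82e-05 for SLIT1, log2 3.28 ± 0.12, adjusted p = 9.82e-05 for MID1 and log2 2.12 ± 0.24, adjusted p = 0.00642 for MATN2 without replicate 1.

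A further 176 genes were called without replicate 1 and not with it, and the following were chosen after their values were seen. IGFBP5, which binds insulin-like growth factors outside the cell, had pair differences of −0.01, −1.13, −1.59 and −1.54, near 0 in pair 1 and negative in the others. Its change without replicate 1 was log2 −1.45 ± 0.14, adjusted p = 0.00441. NRP1, a receptor of semaphorins and vascular growth factors, changed by 1.04 ± 0.12 (adjusted p = 0.00642) and SYT4, a vesicle protein gene of neurosecretory cells, by 1.88 ± 0.22 (adjusted p = 0.00784). For these genes too pair 1 was near or below 0.

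The response of DKO cells was set beside that of WT cells in a fit of all 16 libraries, with the pairing kept within each genotype. On library totals, the targeted gene RB1 stood at 9.88 to 14.4 CPM in DKO and 79.4 to 118 CPM in WT libraries, with no overlap. Enzalutamide changed 1691 of 21810 tested genes in DKO cells (7.75%) and 2641 in WT cells (12.1%) in this fit. Of these 908 were called in both, 53.7% of the DKO calls and 34.4% of the WT calls, and 906 of them had the same direction. The difference of the responses passed the threshold for 39 genes (0.179%), 12 with a higher and 27 with a lower change in DKO. That count was 65 without replicate 1, 13 without replicate 4 and 0 without replicate 2 or without replicate 3, where 1285 and 1219 genes had an unadjusted p under 0.05.

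Of the genes described above, 7 had a called difference. These 7 were named for their changes in the same WT libraries, so a larger change in WT cells was favoured by the choice. Among all 39 genes with a called difference, 19 were called in WT cells in this fit. PLOD2 changed by −0.84 in DKO cells and by −3.79 in WT cells on the log2 scale, a difference of 2.96 ± 0.38 (SE, adjusted p = 0.0293). DDR2 changed by −0.53 in DKO cells and by −1.83 in WT cells on the log2 scale, a difference of 1.299 ± 0.19 (SE, adjusted p = 0.0293). For LINC01133 the change was 0.08 in DKO cells and −1.44 in WT cells on the log2 scale, a difference of 1.52 ± 0.21 (SE, adjusted p = 0.0293). The change of these 3 was more negative in WT cells. DAB1 changed by 0.70 in DKO cells and by 3.03 in WT cells on the log2 scale, a difference of −2.34 ± 0.31 (SE, adjusted p = 0.0292). SEMA3C changed by 1.21 in DKO cells and by 2.53 in WT cells on the log2 scale, a difference of −1.32 ± 0.14 (SE, adjusted p = 0.0149). EFNA5 changed by 0.55 in DKO cells and by 1.42 in WT cells on the log2 scale, a difference of −0.87 ± 0.14 (SE, adjusted p = 0.0321), and SESN1 by 0.57 in DKO cells and by 1.31 in WT cells on the log2 scale, a difference of −0.74 ± 0.13 (SE, adjusted p = 0.0489). The change of these 4 was more positive in WT cells. The remaining genes named for WT cells had no called difference, which does not show that the genotypes responded alike. INSIG1, for example, changed by −1.497 ± 0.15 in DKO cells (adjusted p = 6.14e-04), with an adjusted p of 0.750 for the difference from WT, and MYC by −0.47 ± 0.12 (adjusted p = 0.0359), with 0.213 for the difference.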

How the data were processed

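Whole-transcriptome expression was measured by total RNA sequencing of ribosomal RNA-depleted libraries, per the labels' protocols. For each library the authors deposited a table of unnormalized counts, with Ensembl gene IDs. STAR 2.7.3a and GRCh38 are named in the submitters' processing notes with no role. No counting tool, strand setting, annotation or filter is named in these sources, and each is not given in the sources used here. Symbols came from the gene table supplied with the reference, coordinates from GENCODE v29 (58503 of 60676 IDs) and promoters from RefSeq (GRCh38.p14).

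Groups and replicate numbers were taken from the titles. Replicates of a group differed by more than sampling noise (chi-square per degree of freedom 5.4 to 104.2). Replicates 2 and 3 were much the closest, at 5.4 in EZ and 8.5 in DMSO, against 28.7 to 104.2 for the other comparisons within a group. Whether pairs 2 and 3 are as independent of each other as the other pairs was not tested. The pairing was taken from the numbers. For each number, the correlation of deviations from the group means was 0.38, 0.42, 0.69 and 0.42 for replicates 1 to 4, and each was over 0.1. Libraries of different numbers correlated too, EZ replicate 3 with DMSO replicate 2 at 0.58 and EZ replicate 2 with DMSO replicate 3 at 0.38. EZ replicate 1 and DMSO replicate 4 had 0.24. DMSO replicate 2 was thus closer to EZ replicate 3 than to EZ replicate 2. The labels do not tie same-numbered libraries to a culture or day.

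In R 4.3.3 with edgeR 4.0.16, genes were kept by filterByExpr (minimum count 10, minimum total 15), scaled by TMM and tested with the robust quasi-likelihood F-test with replicate as a block. Benjamini-Hochberg adjusted p under 0.05 over all 19215 tested genes was called. CPM were computed on TMM-scaled library sizes. Changes are log2 fold changes ± SE, with the SE taken as the absolute log2 fold change divided by the square root of the F statistic. Pair differences are of log2 CPM (prior count 2), EZ minus DMSO. The biological coefficient of variation, from the common dispersion, was 19.1%. The precision of single genes rested on dispersions estimated for each gene and on the depth of 16805414 to 47678648 counts. The DKO comparison used all 16 libraries with replicate blocks within genotype. The pipeline was tested on simulated data.

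Gene lists (45, with 1036 of 1037 entries matched) were described by counts of called members and medians, with no set test. Named genes were called genes with 1 direction in all 4 pairs. These were the 12 highest and 12 lowest changes of protein-coding genes at 5 CPM or more, the 8 highest and 8 lowest at 100 CPM or more, the 5 lowest p-values in each direction, the 3 highest and 3 lowest lncRNA genes, and the 2 highest and 2 lowest of each list at 1 CPM or more. A panel of 19 genes was added whatever its result, and some genes and 1 list that these rules name are not reported here. Genes on a list described without these rules are named as its called members. The members and lists were chosen with earlier results of these data known. The alternatives tried were other scalings (RLE, upper quartile, library totals), other filters, fits without the block or with 16 libraries, DESeq2 1.42.0, limma-voom (limma 3.58.1) and leaving out each replicate. Leaving out replicates 1 and 4 together was added after the data were seen.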

Additional observations from a re-analysis of the deposited data

Results flagged for a closer look

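In 50 of 320 groups of 4 libraries that were checked (15.6%), 1 library lay far from the other 3, by Dixon's criterion at the 95% level, which chance alone meets in about 1 in 20 groups. EZ replicate 1 was that library 19 times, EZ replicate 4 had 4 and EZ replicate 2 had 2, and among controls DMSO replicate 4 was apart 17 times and DMSO replicate 1 had 8. Many of these measures are related, so the counts are not independent.

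EZ replicate 1 carried 0.5503% of counts on RN7SL1 (nearest library 0.117%) and 1.295% on EEF1A1 (nearest 0.418%). Its mean log2 CPM over gene lists was 3.05 for Wnt pathway and feedback (nearest 3.35), 6.35 for NRF2 antioxidant targets (nearest 5.50), 3.20 for S phase and replication (nearest 4.56), 2.72 for G2/M and mitosis (nearest 4.87), 3.56 for ion channels and adrenergic receptors (nearest 3.28) and 6.97 for structural noncoding RNAs (nearest 3.88). Single genes apart in this library were ADRA2A at 74.1 CPM (nearest 22.5), MATN2 at 12.5 CPM (nearest 9.29), ITPRID2 at 1538 CPM (nearest 779.8), SELENOW at 71.7 CPM (nearest 51.1), OCLN at 202 CPM (nearest 119), HES1 at 16.9 CPM (nearest 7.25), MT-CO1 at 12287 CPM (nearest 8429.7), CDKN1A at 433 CPM (nearest 104), MKI67 at 16.2 CPM (nearest 107), KLK3 at 13.9 CPM (nearest 19.3) and KLK2 at 17.2 CPM (nearest 38.5).

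EZ replicate 4 had a mean log2 CPM of 6.17 for cholesterol synthesis and uptake (nearest 5.89) and 7.15 for fatty acid synthesis and desaturation (nearest 6.92), with EFNA5 at 222 CPM (nearest 353) and FASN at 2673 CPM (nearest 1670.0). EZ replicate 2 had 3.13 for Notch pathway (nearest 3.31), and AIDA at 669 CPM (nearest 624).

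DMSO replicate 4 had a mean log2 CPM of 8.20 for ER chaperones and unfolded protein response (nearest 7.59), 4.28 for receptor tyrosine kinases and their ligands (nearest 3.82), 6.55 for NRF2 antioxidant targets (nearest 5.21), 4.90 for apoptosis regulators (nearest 4.31) and 6.00 for autophagy and lysosome (nearest 5.31). Single genes apart in it were SLIT1 at 6.45 CPM (nearest 3.61), B2M at 818 CPM (nearest 190.5), HLA-E at 85.5 CPM (nearest 25.9), TAP1 at 58.8 CPM (nearest 21.4), UGT2B17 at 349 CPM (nearest 188), TM7SF2 at 193 CPM (nearest 131), LAMP2 at 459 CPM (nearest 329.9), BAD at 15.7 CPM (nearest 11.6), FDFT1 at 881 CPM (nearest 483), LINC01133 at 15.7 CPM (nearest 10.9), KCNU1 at 11.1 CPM (nearest 3.89) and SLC38A4 at 0.614 CPM (nearest 2.33). The MHC class I and sterol genes among these enter the comparisons of the report, and the part of this library in them was not tested beyond leaving the pair out.

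DMSO replicate 1 had a mean log2 CPM of 3.70 for glucocorticoid receptor and its targets (nearest 3.94), 1.69 for interleukin-1 family (nearest 1.53) and 6.13 for structural noncoding RNAs (nearest 3.54). Its single genes were SPRY4 at 1.03 CPM (nearest 0.422), ID1 at 7.19 CPM (nearest 1.83), AIDA at 178 CPM (nearest 102), ZC3H12A at 48.8 CPM (nearest 30.7) and HES6 at 70.6 CPM (nearest 43.4).

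The enzalutamide effect differed between genotypes in the edgeR interaction test for 7 named genes, whose choice by their change in WT cells favoured a larger effect there. The effect in DKO minus that in WT, on the log2 scale with SE, was 2.96 ± 0.38 for PLOD2 (adjusted p = 0.0293), 1.52 ± 0.21 for LINC01133 (adjusted p = 0.0293) and 1.299 ± 0.19 for DDR2 (adjusted p = 0.0293), which fell in WT. It was −2.34 ± 0.31 for DAB1 (adjusted p = 0.0292), −1.32 ± 0.14 for SEMA3C (adjusted p = 0.0149), −0.87 ± 0.14 for EFNA5 (adjusted p = 0.0321) and −0.74 ± 0.13 for SESN1 (adjusted p = 0.0489), which rose in WT. Leaving out pair 2 or pair 3 gave 0 calls among all tested genes, with 1285 and 1219 genes at an unadjusted p under 0.05.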

How the results depend on the processing

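The paired count of 1104 called genes in WT cells was within 1.5 times under other scalings, the 1 CPM filter and limma-voom, from 959 with library totals to 1111 with limma-voom. With the replicate block dropped it was 294. In fits of 16 libraries it was 2641 with the replicate block within genotype, 1724 with a block shared by genotypes and 724 with no block. Without a filter it was 2229 and with DESeq2 1981. Leaving out 1 replicate number gave 10 (without replicate 3) to 1809 (without replicate 4). Without replicate 1 and without the block it was 118, and without replicates 1 and 4, added after the data were seen, 5286. The difference between genotypes, 39 genes, had 0 calls with no replicate block, where 648 genes had an unadjusted p under 0.05, against 2145 with the block. It had 1 call with a shared block and 0 to 65 with 1 replicate number left out. The fewer samples of each such fit are part of its construction, and the cause beyond that was not tested.

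No called named gene reversed its direction under any setting tried. These genes had 1 direction in all 4 pairs, so this outcome was largely fixed in advance. Of 98 called named genes, 59 kept their call with no replicate block, 87 without replicate 1, 25 without replicate 2, 10 without replicate 3 and 92 without replicate 4. Reversals were in panel genes that were not called. Without replicate 1 the log2 fold change was 0.040 for FKBP5 and 0.35 for MKI67, and with the block dropped too it was 0.028 and 0.10. With replicates 1 and 4 left out it was −0.17 for MYC and 0.080 for RB1. With 1 replicate number left out the range was −0.50 to 0.040 for FKBP5, −1.30 to 0.35 for MKI67, −0.34 to 0.19 for NR3C1 and −0.0017 to 0.29 for MYC. Depth limited genes under about 1 CPM, where 1 library could decide a value.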
